A study of Mus musculus with 19 samples.

Results

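The CDR3s described here are abundant T cell receptor beta (TRB) sequences of the infarcted heart that were also listed in a lymph node draining an infarcted heart. The CDR3 is the receptor loop that V-D-J joining creates and is printed as amino acids, with its first cysteine and last phenylalanine left off. Reads were summed per CDR3 in each library. A CDR3 was chosen by having 1000 or more reads in at least 1 heart library and a listed read in at least 1 mediastinal node library after myocardial infarction (MI). Of 1082330 CDR3s in the series, 11808 were listed in a heart and 1299 had 1000 or more reads in a heart, called abundant from here on. Of these, 816 met the rule and are the members (62.8%, 95% Wilson interval 60.2% to 65.4%), while 483 were in no MI node. The interval covers the counting of CDR3s and not the spread between hearts.

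The libraries held TRB transcripts of CD4+ TCRβ+ T cells sorted from BALB/c mice at day 7, from 500000 cells per node library and 5000 cells per heart library. Hearts (n = 3) and mediastinal MI nodes (n = 3) came from mice with ligation of the left anterior descending coronary artery, and mediastinal sham nodes (n = 4) from mice with a thoracotomy and no ligation. Axillary nodes drained a subcutaneous injection of Titermax adjuvant alone (adjuvant nodes, n = 4), of 100 µg porcine cardiac myosin in adjuvant (myosin nodes, n = 2) or of 1 mg mouse heart extract in adjuvant (heart extract nodes, n = 3). Myosin and heart extract nodes together are the antigen nodes (n = 5). The labels give the immunized mice 1 of 2 adjuvant volumes without assigning them, so volume and antigen cannot be told apart. They state neither that a library came from 1 mouse nor that a shared sample number marks the same mouse, and every p-value covers only the spread of the libraries. Only TRB transcripts were amplified, so no marker of the sorted cell type could be checked.

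T cells of a clone carry the same rearranged receptor, so a CDR3 found in a tissue and in its draining node can mark a clone with cells in both places. The V and J segments set the ends of the CDR3, and its centre comes from a D segment and from nucleotides added or trimmed at the joins. The same amino acid sequence can also arise in unrelated cells and in different mice, which is then called a public CDR3.

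The members that held most reads in each heart show what the set contains, and are given with the V and J segments of most of their heart reads.
Heart 1, TRBV14 with TRBJ1-1: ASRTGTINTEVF
Heart 1, TRBV19 with TRBJ2-3: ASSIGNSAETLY
Heart 2, TRBV14 with TRBJ1-4: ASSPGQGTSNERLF
Heart 2, TRBV19 with TRBJ1-4: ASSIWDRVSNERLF
Heart 3, TRBV14 with TRBJ1-1: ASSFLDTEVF
Heart 3, TRBV19 with TRBJ2-5: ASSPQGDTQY
All 6 were joined to TRBV14 (Vβ13) or TRBV19 (Vβ6).

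Members made up 183 of the 313 abundant CDR3s of heart 1 (58.5%), 279 of 439 in heart 2 (63.6%) and 357 of 550 in heart 3 (64.9%). They held 62.6%, 63.5% and 68.6% of all reads of hearts 1, 2 and 3. The abundant CDR3s as a whole held 97.4% to 97.9% of heart reads, so most of the 2898, 4153 and 4795 CDR3s of hearts 1, 2 and 3 held few reads. Members had a median of 4520, 4643 and 4352 heart reads, beside 3633.5, 4547 and 4871 for the abundant CDR3s in no MI node. The percent of CDR3s listed in an MI node fell with the heart reads: of CDR3s with at least 100 and under 1000 reads, 45.1%, 44.1% and 51.6% were listed, and of those with under 100 reads, 15%, 16.2% and 16.6%. At the limit of the rule, a CDR3 of 13 residues with TRBV13-1 and TRBJ1-3 had exactly 1000 reads in heart 2, with 31 and 43 reads in MI nodes 2 and 3. A CDR3 of 14 residues with TRBV13-3 and TRBJ2-3 also had 1000 reads in heart 2, with 62 and 3 reads in MI nodes 1 and 2. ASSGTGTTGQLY had 1000 reads in heart 3 and 8, 65 and 7 in MI nodes 1, 2 and 3. Just below the limit, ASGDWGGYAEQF had 992 reads in heart 2 and 112, 49 and 101 in MI nodes 1, 2 and 3. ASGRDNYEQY had 991 reads in heart 3 and 38, 4 and 99 in the MI nodes in that order. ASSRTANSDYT had 988 reads in heart 3 and 1091, 412 and 907 in the MI nodes, the most of these 6 CDR3s on both sides of the limit. Of the 483 abundant CDR3s outside the set, 130 were in a sham or axillary node and 353 (27.2% of the 1299) in none of the 16 node libraries. The lowest count in the tables is 2, so a CDR3 not listed may still have had a read.

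The abundant CDR3s of each heart were found most often in the MI node that carries the same sample number. MI node 1 listed 47.3% of the abundant CDR3s of heart 1, against 36.1% in MI node 2 and 26.2% in MI node 3. MI node 2 listed 53.1% of those of heart 2, against 39.2% in MI node 1 and 33% in MI node 3. MI node 3 listed 47.8% of those of heart 3, against 42.5% in MI node 1 and 44.5% in MI node 2. Of the 16 node libraries, the one of the same number ranked first for every heart. Sham node 3 listed 34.2%, 41.5% and 42.4% of the abundant CDR3s of hearts 1, 2 and 3, for heart 2 more than MI nodes 1 and 3. The rule did not use the numbers, and all abundant CDR3s entered these percentages.

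**Figure D1:**
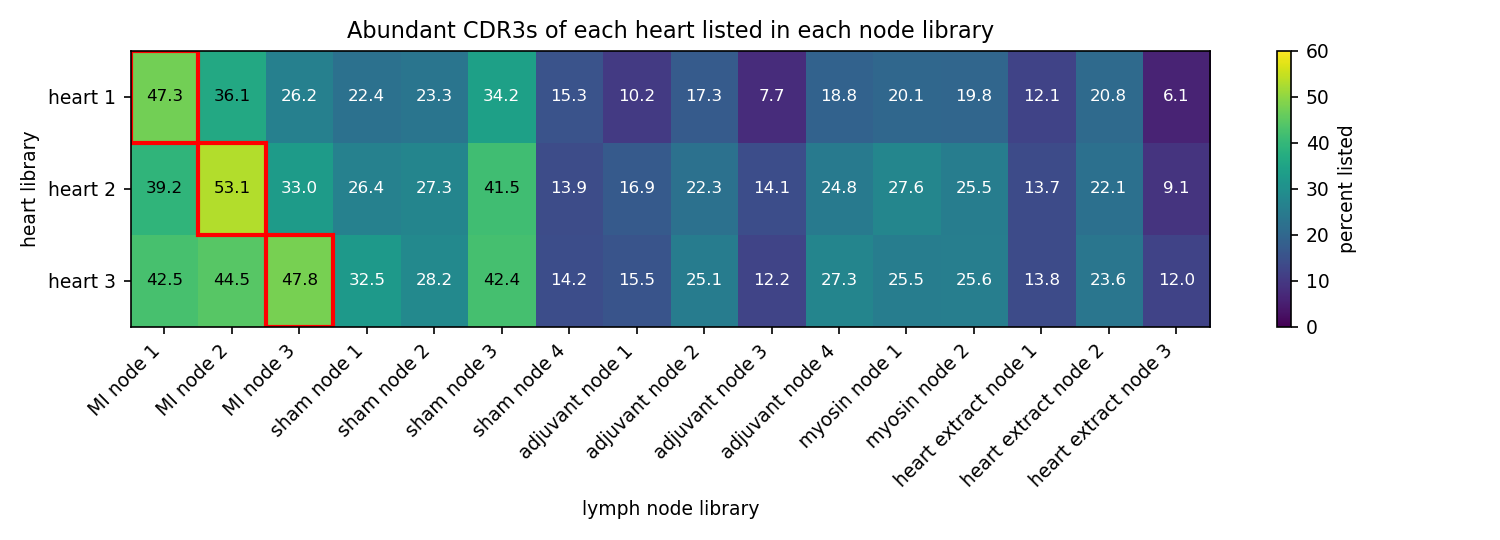
Percent of the abundant CDR3s of each heart library (rows) listed in each of the 16 node libraries (columns); red frames mark the MI node with the heart's own sample number. The framed cells hold 47.3%, 53.1% and 47.8%, the highest value of each row.

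The same number exceeded the mean of the other MI nodes by 16.1 percentage points for heart 1, 17 for heart 2 and 4.27 for heart 3, a mean of 12.5 points (exact permutation of the pairing, p 0.167, the smallest that 6 pairings allow). MI node 2 held 230684 distinct CDR3s and MI node 3 held 140864. With the 140864 most abundant CDR3s kept in each MI node the differences were 11.3, 12.2 and 11.6 points. With the 38437 most abundant CDR3s kept in each of the 16 nodes the same number again ranked first for each heart. It listed 22.4%, 26.2% and 27.3%, the next highest nodes being at 17.3%, 21.4% and 22.2%. When V and J had to match as well, it ranked first with 38.4%, 42% and 39.6%, the next highest nodes being at 27.5%, 30.1% and 30.9%. Across the 1299 abundant CDR3s the deviations of a heart and an MI node from their group means correlated at 0.231, 0.214 and 0.243 for equal numbers and between -0.15 and -0.0681 for unequal ones, a description across CDR3s of the same libraries. Deviations within a group cancel out, so higher values for equal numbers bring lower ones for unequal numbers.

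CDR3s that occurred in a single node library showed the number most clearly. Of 213 abundant CDR3s listed in exactly 1 of the 16 nodes, 101 (47.4%) were in the MI node of the heart's number, with 32, 36 and 33 for hearts 1, 2 and 3. The other MI nodes held 30 of them, the 4 sham nodes 45, the 4 adjuvant nodes 17, both myosin nodes 13 and the 3 heart extract nodes 7. Per library this was 101 for the same number, 15 for another MI node, 11.2 for a sham node, 4.25 for an adjuvant node, 6.5 for a myosin node and 2.33 for a heart extract node, summed over hearts. Between 44.9% and 53.5% of all CDR3s of a node library were listed in that node and no other. These were 67003 to 116954 CDR3s in an MI node and 27512 to 106717 in a sham node. An adjuvant node had 23518 to 42451, the myosin nodes 45736 and 41108 and a heart extract node 20570 to 41049. The values per library are not scaled to these numbers, so their order among the other kinds of node is not read as a result. The same MI nodes served as same and as other number.

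**Figure D2:**
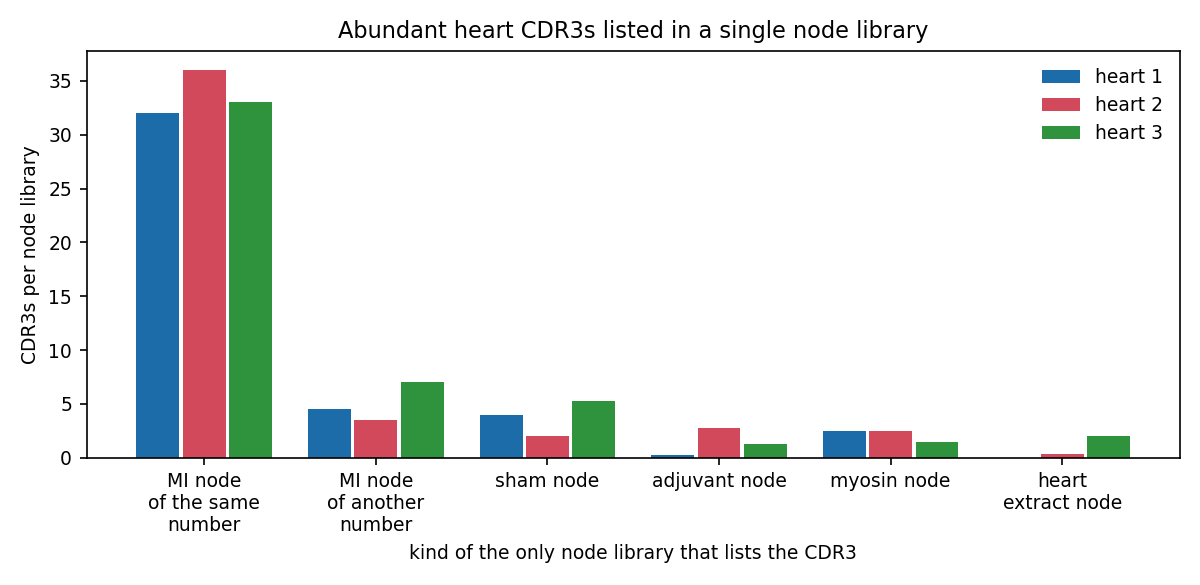
Number of abundant heart CDR3s listed in exactly 1 node library, per library of each kind (bars, coloured by heart). The MI node of the heart's number held 32, 36 and 33, and no other kind held more than 7 per library.

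By the rule, 131 members (16.1%) were those listed in 1 node alone, where 60.4% of all 469013 CDR3s of the MI nodes were. Among the 101 in the node of the heart's number, 94 had the heart's V and J there and 31 had 100 or more reads. Among the 30 in another MI node, 25 had the heart's V and J and 2 had 100 or more reads. The median was 31 reads in the first set and 19 in the second. ASKRTVNNQAPL (TRBV19, TRBJ1-5) had the most node reads of these, 5898 in MI node 3, with 32556 reads in heart 3 and no listed read in any other library. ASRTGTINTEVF, the leading CDR3 of heart 1 with 68148 reads, had 242 reads in MI node 1 and was in no other library, but none of the 242 carried its heart pair TRBV14 and TRBJ1-1. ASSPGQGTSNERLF had 145259 reads in heart 2 and 1086 in MI node 2, all with TRBV14 and TRBJ1-4, and none elsewhere. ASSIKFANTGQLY (TRBV19, TRBJ2-2) had 75908 reads in heart 2 and 199 in MI node 2 alone.

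Of the 816 members, 47 reached 1000 or more reads in an MI node, and 33 of these had their highest MI node share in the heart's own number. Of the 47, 10 were in no sham node, and all 10 were highest in the node of their heart's number. Of these 10, 7 belonged to heart 3. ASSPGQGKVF (TRBV19, TRBJ1-1) is the largest of them in a node, with 16504 reads in heart 3 and 21935 in MI node 3, beside 65 in adjuvant node 2 and 28 in MI node 1. It held 0.322% of the heart reads and 0.24% of the reads of MI node 3. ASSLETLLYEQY (TRBV16, TRBJ2-7) had 3659 reads in heart 1, 3877 in MI node 1 and none in any other library. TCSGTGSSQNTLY (TRBV1, TRBJ2-4) had 15485 reads in heart 1, 1458 in MI node 1, 83 in myosin node 1 and 2 in adjuvant node 1. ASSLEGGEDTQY (TRBV14, TRBJ2-5) had 49477 reads in heart 3 and 3228 in MI node 3, beside 2 and 76 in MI nodes 1 and 2, 107 in adjuvant node 2 and 102 in myosin node 2. The last 3 were chosen for naming after their values were seen. In each of these the node of the same number held the most reads of the 16 nodes.

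The leading member of heart 3, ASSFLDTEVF, had 171644 heart reads, 7037 reads in MI node 3, none in MI nodes 1 and 2 or in a sham node, and 2 reads each in adjuvant node 2 and myosin node 2. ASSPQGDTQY had 164396 reads in heart 3 and 3 in heart 2. In the nodes it had 27, 365 and 5130 reads in MI nodes 1, 2 and 3, 72 and 235 in sham nodes 1 and 3, 69 in adjuvant node 4 and 36 in myosin node 2. With the heart's TRBV19 and TRBJ2-5 these were 5130, 16 and 10 reads in MI nodes 3, 2 and 1, 36 in sham node 3 and none in the axillary nodes. The amino acid sequence was thus in 7 nodes, and with the heart's V and J in 4.

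Some leading members of the heart were not in the node of their number. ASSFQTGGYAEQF (TRBV14) had 49436 reads in heart 1, 23 in MI node 2 and 8 in sham node 3, none with its heart V and J. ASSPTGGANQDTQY (TRBV14) had 43683 reads in heart 1 and 16, 129 and 79 reads in MI nodes 2 and 3 and adjuvant node 4, again none with its heart V and J. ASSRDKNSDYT (TRBV14, TRBJ1-2) had 145158 reads in heart 3, 105 and 216 in MI nodes 1 and 2 and none in MI node 3, but 70, 1754, 273 and 316 in sham nodes 1 to 4. It was also in adjuvant nodes 2 and 4 with 189 and 413 reads, and in 4 antigen nodes with 10 to 1334 reads. With its heart V and J it had 75 reads in MI node 2, 1358 in sham node 2, 321 in myosin node 2 and none in any other node. Over the 816 members the rank correlation of heart reads with summed MI node reads was 0.274, given as a description across CDR3s.

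**Figure D3:**
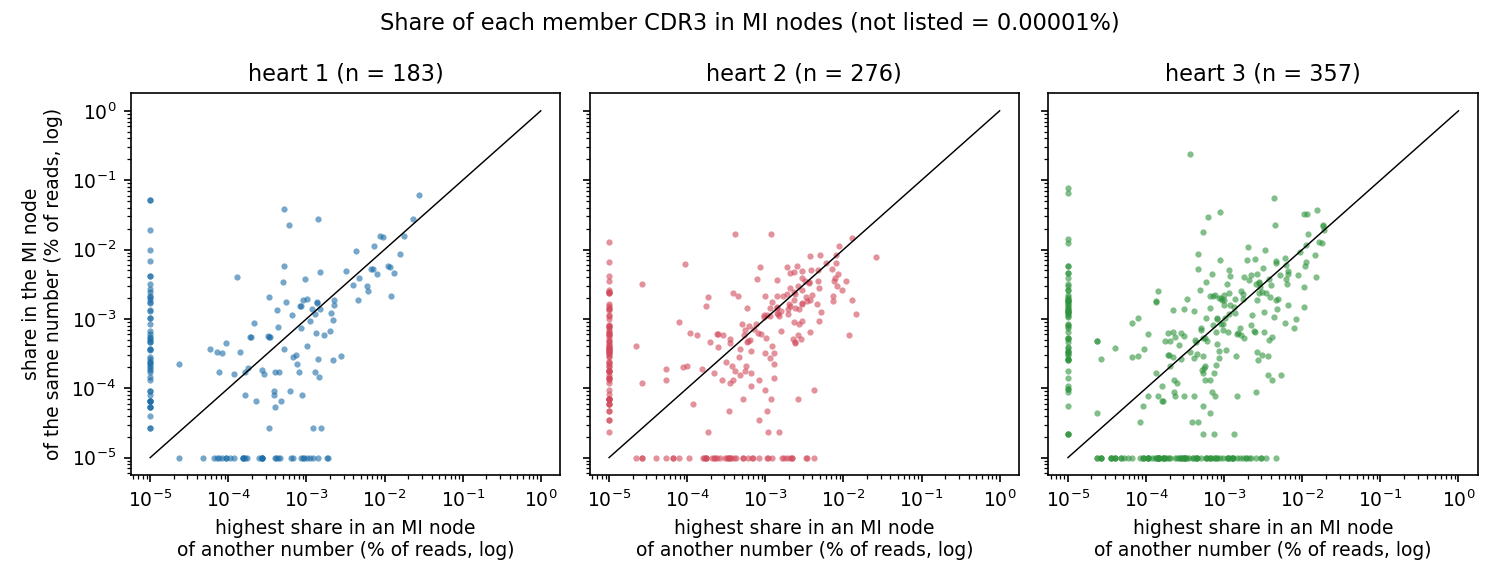
Share of each member in the MI node of its heart's number (y axis) against its highest share in an MI node of another number (x axis), in percent of library reads on log axes, with CDR3s not listed drawn at 0.00001%; each member is drawn under the heart with most of its reads. Above the diagonal lie 97 of 183, 139 of 276 and 162 of 357 members of hearts 1, 2 and 3.

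The V and J of the heart matched more often in the node of the same number. A member listed there had its heart V and J among its node reads in 81.8%, 80.1% and 82.1% of cases for MI nodes 1, 2 and 3. Members of the other hearts in the same nodes matched in 74.2%, 72.1% and 68.8% of cases. By reads, the heart's V and J held 81.8%, 57.5% and 80.1% for members of the same number and 49.4%, 57% and 49.9% for the others. On that measure MI node 2 hardly differed. In sham nodes 60.8% to 71.1% matched, in adjuvant nodes 54.5% to 66.1%, in myosin nodes 61.8% and 63.3% and in heart extract nodes 50.8% to 58.9%. In all, 689 members had their heart V and J in an MI node and 127 were there only with another V or J. The reads of a CDR3 in a heart were nearly all of 1 pair (median 100% of reads), although 142 members had under 90% with their leading pair.

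Members were spread over most TRBV and all listed TRBJ segments. TRBV5 (Vβ1) led with 114 members (14%), then TRBV19 with 112 (13.7%), TRBV13-2 with 86 (10.5%), TRBV13-1 with 77 (9.44%), TRBV1 (Vβ2) and TRBV4 (Vβ10) with 68 each (8.33%), TRBV20 with 55 (6.74%), TRBV13-3 and TRBV31 (Vβ14) with 49 each (6%) and TRBV2 with 43 (5.27%). In the MI nodes TRBV5 made up 12.2% and TRBV19 10.7% of distinct CDR3s. TRBJ2-7 led the J segments with 112 members (13.7%), followed by TRBJ2-5 with 97, TRBJ2-3 with 94, TRBJ2-1 with 90, TRBJ1-1, TRBJ1-4 and TRBJ2-4 with 80 each, TRBJ1-3 with 66, TRBJ2-2 with 54 and TRBJ1-2 with 46. TRBV5 with TRBJ2-5 was the most frequent pair, with 23 members.

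Against the abundant CDR3s in no MI node, few segments differed in the same direction in every heart. TRBV13-3 was in 6% of members and 2.48% of the others, and was higher in members by 3.29 ± 1.11 percentage points (SD, n = 3 hearts). TRBV13-1 was higher by 3.3 ± 0.303 points and TRBV2 by 1.79 ± 0.39. TRBV31 was lower by 2.98 points (9.32% of others, 6% of members) and TRBJ2-1 was in 11% of members and 16.1% of others, both lower in 3 of 3 hearts. TRBV13-2 showed no such uniformity, with 7.1% of members and 21.5% of others in heart 1 but 12.9% and 12.4% in heart 3. The heart's V and J were found in an MI node for 55.1% of TRBV13-3 members, 76.6% of TRBV13-1, 83.7% of TRBV2 and 98% of TRBV31 members. The segment differences count a CDR3 listed with any V and J and were not recounted with both matched. No p is given for these segments, since listing in an MI node chose the members.

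Reads per CDR3 differed between V segments, and in another order than the number of members. Members with TRBV14 had a median of 25838 heart reads and those with TRBV19 a median of 18074.5, whereas TRBV13-1, TRBV13-2 and TRBV13-3 had 2335, 2395 and 1882. TRBV19 was in 13.7% of members and 34.8% of their heart reads, TRBV14 in 4.04% and 16.5%, and TRBV13-2 in 10.5% and 4.8%. The abundant CDR3s in no MI node had the same pattern, with medians of 25289.5 for TRBV14, 15443.5 for TRBV19 and 2693 for TRBV13-2. In the MI nodes the mean reads per distinct CDR3 were 121 ± 28.5 for TRBV14, 81.1 ± 25.3 for TRBV19, 58.9 ± 18.5 for TRBV5 and 10.5 ± 3.7 to 11.2 ± 3.61 for the TRBV13 segments (SD, n = 3). Over 16 segments with at least 7 members the heart median and the node mean had a rank correlation of 0.798, as a description. The labels name gene-specific primers in a multiplex PCR, and the part of segment yield in these reads was not tested.

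Members were shorter than the other abundant CDR3s of the same heart. Their mean length was 11.9, 12 and 11.7 residues in hearts 1, 2 and 3, against 12.7, 12.4 and 12.5 for the abundant CDR3s in no MI node. The differences were -0.752, -0.462 and -0.711 residues, a mean of -0.642, and with 3 hearts an exact sign-flip test cannot go below p 0.25. Of all members 35.7% had 11 or fewer residues against 22.2% of the others, and 7.48% had 14 or more against 24.8%. Of abundant CDR3s with 11 residues 77% were members, of those with 14 residues 37.4%, and of those with 15 residues 18.2%. Members were shorter within each of the 13 V segments with at least 10 CDR3s on both sides, with differences from -0.342 residues (TRBV4) to -1.41 (TRBV13-3). Within the members the mean length was 12.4 ± 1.62 residues for those in 1 node, 11.7 ± 1.25 for those in 5 to 8 nodes and 11.7 ± 0.865 for the 20 in all 16.

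**Figure D4:**
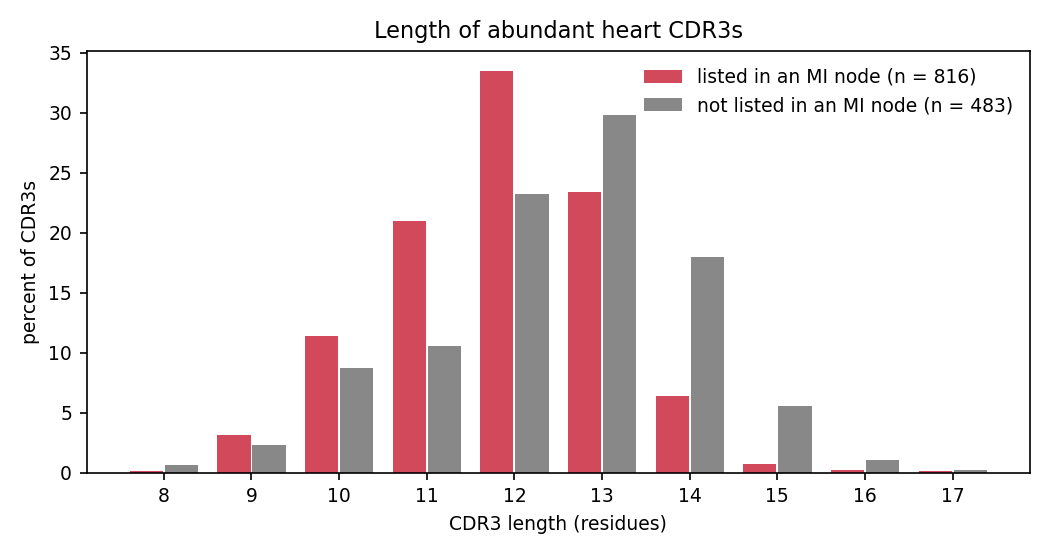
Length in residues of the 816 members (red) and the 483 abundant heart CDR3s in no MI node (grey), as a percent of each set. Members peak at 12 residues (33.5%) and the others at 13 (29.8%), and 24.8% of the others have 14 or more.

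Members also resembled CDR3s of other hearts more often. A CDR3 differing by 1 residue, of equal length, was an abundant CDR3 of another heart for 99 members (12.1%) and for 8 of the 483 others (1.66%). Per heart it was 14.8%, 11.5% and 11.5% of members and 1.54%, 0.625% and 2.59% of the others. The sets differ in length, which was not held equal here. In all, 138 members fell into 58 groups joined by steps of 1 residue. The largest groups show which positions varied, and 2 of them are printed with the V and J of the heart. The number of nodes counts a CDR3 listed with any V and J.
Heart 1, TRBV19 with TRBJ2-7, 16 nodes: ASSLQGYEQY
Heart 1, TRBV19 with TRBJ2-7, 14 nodes: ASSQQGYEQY
Heart 3, TRBV29 with TRBJ2-7, 13 nodes: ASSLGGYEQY
Heart 1, TRBV3 with TRBJ2-7, 7 nodes: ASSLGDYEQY
Heart 3, TRBV3 with TRBJ2-7, 2 nodes: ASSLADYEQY
Heart 1, TRBV16 with TRBJ2-7, 12 nodes: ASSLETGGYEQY
Heart 3, TRBV16 with TRBJ2-7, 5 nodes: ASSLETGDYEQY
Heart 3, TRBV16 with TRBJ2-7, 2 nodes: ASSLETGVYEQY
Heart 1, TRBV13-1 with TRBJ2-7, 6 nodes: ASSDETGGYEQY
The first 5 form a group of 10 residues and the last 4 a group of 12 residues, both ending in the YEQY that TRBJ2-7 gives. The 3 TRBV16 members of the second group had 14304, 62553 and 6549 reads in the heart listed. With the heart's V and J, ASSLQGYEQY was in no heart extract node and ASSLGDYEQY was in MI node 1 alone. All node reads of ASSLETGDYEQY and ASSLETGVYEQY had the heart's V and J. A further group of 4 used TRBV31 with TRBJ2-4 throughout, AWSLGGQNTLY, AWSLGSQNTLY, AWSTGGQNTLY and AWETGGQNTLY, from 1 to 14 nodes. A group of 3 with TRBJ1-1 held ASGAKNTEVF, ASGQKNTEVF and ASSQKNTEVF, and another with TRBJ2-5 held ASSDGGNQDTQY, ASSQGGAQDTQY and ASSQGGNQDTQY.

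Members were rarely shared between hearts. Of the 816, 14 had a listed read in 2 hearts, 3 had 1000 or more in 2 hearts and none was in all 3. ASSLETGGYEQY (TRBV16, TRBJ2-7) had 14304 reads in heart 1 and 10555 in heart 2, and 4613, 2352 and 4 reads in MI nodes 1, 2 and 3. It was in all 4 sham nodes with 115 to 910 reads, in adjuvant nodes 2 and 3 with 2 and 81, in myosin node 1 with 21 and in heart extract nodes 1 and 2 with 492 and 375. Its reads were highest in the MI nodes of the 2 hearts that held it. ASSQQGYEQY (TRBV19) had 21381 reads in heart 1 and 3842 in heart 2 but, with any V and J, 373 to 597 in every MI node and 434 to 1613 in every sham node. With TRBV19 and TRBJ2-7 it had 55 reads in MI node 3, 549 in sham node 1, 58 in sham node 3 and none in any other node. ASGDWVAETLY (TRBV13-2) had 2000 reads in heart 2 and 7242 in heart 3, with 10 and 164 reads in MI nodes 1 and 3 and 15 in sham node 3.

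Members ranged from private to present in every node. By number of MI nodes, 306 were in all 3, 199 in 2 and 311 in 1. The median member was in 5 of the 16 nodes, and 20 (2.45%) were in all 16, where 0.0674% of all CDR3s of the MI nodes were. In no sham node were 243 members (29.8%, against 74.3% of all MI node CDR3s), and 153 were in MI nodes alone. Abundance in the heart and listing in a node chose the members, so these shares describe the set and are not a test.

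Listing in all 16 nodes counts a CDR3 with any V and J, and the segments given here are those of the heart. Of the 20 members in all 16 nodes, 9 used TRBV5, 4 TRBV19, 2 TRBV20 and 1 each TRBV2, TRBV4, TRBV13-1, TRBV14 and TRBV29. The 8 of these with most summed node reads all used TRBV5, a segment with many reads per CDR3, and 6 of them began ASSQDWG or ASSQDRG. Their sequences are shown for this common start.
TRBV5 with TRBJ2-5, heart 3: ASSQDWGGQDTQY
TRBV5 with TRBJ2-7, heart 1: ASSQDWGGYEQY
TRBV5 with TRBJ2-5, heart 3: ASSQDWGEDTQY
TRBV5 with TRBJ2-5, heart 1: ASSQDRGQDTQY
TRBV5 with TRBJ2-4, heart 1: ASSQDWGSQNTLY
TRBV5 with TRBJ2-7, heart 3: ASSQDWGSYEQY
TRBV5 with TRBJ2-3, heart 1: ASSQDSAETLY
TRBV5 with TRBJ1-3, heart 3: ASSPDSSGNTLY
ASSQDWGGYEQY had 15869 reads in heart 1. It had 2083, 1981 and 1887 reads in MI nodes 1, 2 and 3 and 1655, 2073, 1497 and 1067 in sham nodes 1 to 4. It had 217, 2230, 1865 and 1258 in adjuvant nodes 1 to 4, 1410 and 860 in the myosin nodes and 656, 1555 and 1516 in the heart extract nodes. The groups overlapped, with no order by treatment. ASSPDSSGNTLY, with 19259 reads in heart 3, had 759 to 2036 reads in MI nodes, 1395 to 2727 in sham nodes, 456 to 2087 in adjuvant nodes and 497 to 3638 in antigen nodes. With its heart V and J it had 287 to 714 reads in MI nodes, 5 in sham node 4 and none in adjuvant node 1. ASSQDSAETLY had none with its heart V and J in sham node 1, whereas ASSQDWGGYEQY had some in every node. CDR3s that began ASSQD made up 7.11% of members and 3.31% of the other abundant CDR3s, and were more frequent in members in 3 of 3 hearts. Those ending NTEVF, the TRBJ1-1 end, made up 6.86% and 3.52%, also in 3 of 3 hearts, while at least 1 glycine was in 81% and 87.8%, lower in members in every heart.

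The listing of members in a node followed how many distinct CDR3s that node held. MI nodes listed 59.7% to 72.2% of members by the rule (each member is in at least 1). Sham nodes listed 40.1% ± 15, adjuvant nodes 27.5% ± 9.02, myosin nodes 36.8% ± 1.06 and heart extract nodes 23.1% ± 10.3 (SD, n = 4, 4, 2 and 3). Sham node 3 with 212131 distinct CDR3s listed 57.7% of the members and sham node 4 with 52869 listed 21%. Heart extract node 3, with the fewest at 38437, listed 14.7%. Members held 1.25%, 1.01% and 1.7% of the reads of MI nodes 1, 2 and 3, and 0.798% to 1.27% in sham nodes, 0.779% to 0.951% in adjuvant nodes, 0.818% and 0.912% in myosin nodes and 0.776% to 0.934% in heart extract nodes. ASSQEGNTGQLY alone had 26087 reads in sham node 1, where members held 1.27% of reads, and the remaining sham nodes had at most 0.926% (this CDR3 was chosen for naming after its values were seen).

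**Figure D5:**
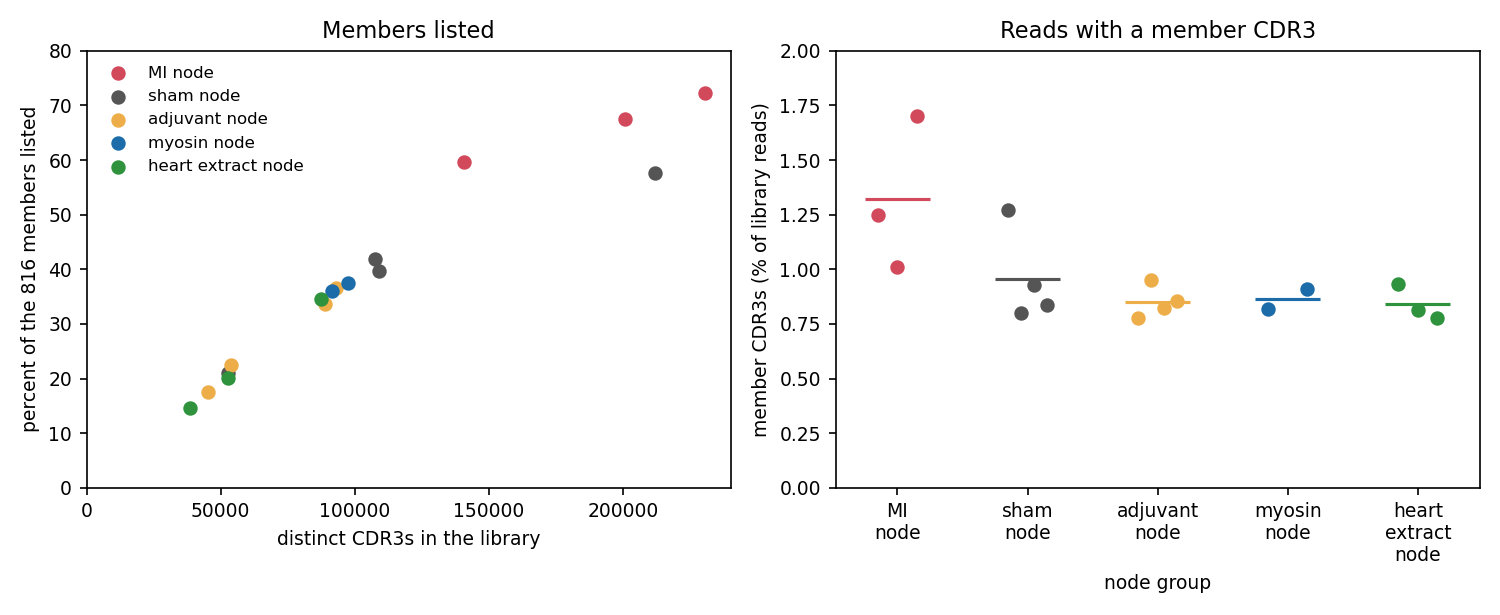
Left, percent of the 816 members listed in each node library against its number of distinct CDR3s; right, percent of library reads with a member CDR3, each point a library and each line its group mean. The percent listed rises with the number of distinct CDR3s across groups, from 14.7% in heart extract node 3 to 72.2% in MI node 2.

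Over all 1299 abundant CDR3s, members or not, MI nodes listed 41.8% ± 3.94 and sham nodes 27.2% ± 10.5, a difference of 14.6 points (exact two-sided permutation p 0.0857, 35 splits). With equal numbers of the most abundant CDR3s per node the difference was 4.86 points (p 0.0571), and neither was below 0.05. The node of the same number is part of these MI values. With equal numbers of CDR3s, the MI nodes of another number listed 17.3% and 13.1% of the abundant CDR3s of heart 1, beside 12.5% to 16.3% in sham nodes. For heart 2 they listed 21.4% and 18.7%, beside 11.4% to 21% in sham nodes. For heart 3 they listed 20% and 22.2%, beside 13.1% to 21.8%. Antigen nodes listed 18.8% ± 6.95 and adjuvant nodes 18.2% ± 6.06, a difference of 0.604 points (exact permutation p 0.865, 126 splits). Its sign turned with equal numbers of CDR3s (-0.269) and without adjuvant node 1 (-0.57), adjuvant node 3 (-1.6), myosin node 1 (-0.885), myosin node 2 (-0.731) or heart extract node 2 (-0.269).

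The immunized nodes asked whether CDR3s of the infarcted heart were larger after injection of cardiac proteins than after adjuvant alone. Of 121771 CDR3s with a read in at least 3 nodes and 20 reads in all, 583 were members, and the fit called 0 of them, and 0% of all CDR3s, for antigen, myosin or heart extract against adjuvant (edgeR quasi-likelihood test, Benjamini-Hochberg adjusted p under 0.05). At an unadjusted p under 0.05 were 90 members for antigen (15.4%, with 26570 or 21.8% of all CDR3s), 49 for myosin (8.4%, with 16360 or 13.4%) and 78 for heart extract (13.4%, with 18224 or 15%). Of these members, 19 of 90, 46 of 49 and 38 of 78 had the higher fitted level after the antigen. For the antigen contrast, the fitted log levels of the myosin and heart extract groups were averaged, weighted by their libraries, also with DESeq2. A CDR3 without reads in either of these groups is thereby drawn down. The 19 of 90 is therefore not a count by antigen node reads. DESeq2 called 84, 53 and 76 members among 15621, 11992 and 14333 CDR3s, with 21, 14 and 17 of these members higher after the antigen. The smallest p among members in the antigen contrast belonged to CDR3s of adjuvant nodes, as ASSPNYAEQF, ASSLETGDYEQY and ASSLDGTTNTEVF had no antigen node read (adjusted p 0.209 each by edgeR). For myosin they were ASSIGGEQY, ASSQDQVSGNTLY and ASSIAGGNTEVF (adjusted p 0.369 each by edgeR), and for heart extract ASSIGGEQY, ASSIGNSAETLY and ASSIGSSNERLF (adjusted p 0.258 each by edgeR).

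The CDR3 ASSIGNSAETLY, among the largest of heart 1 with 56661 reads, was in all 3 heart extract nodes (397, 257 and 324 reads) and in no myosin or adjuvant node. It also had 361, 126 and 37 reads in MI nodes 1, 2 and 3, and 259 and 56 in sham nodes 1 and 3, nearly all with the TRBV19 and TRBJ2-3 of the heart. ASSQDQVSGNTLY (TRBV5, TRBJ1-3) had 6121 reads in heart 2, 40, 8 and 90 in the MI nodes, 239 and 159 in the myosin nodes and 1039 and 24 in sham nodes 1 and 3. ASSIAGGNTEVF (TRBV19, TRBJ1-1) had 27373 reads in heart 2, 220, 79 and 206 in the MI nodes, 6, 100 and 89 in sham nodes 1 to 3 and 2 and 440 in the myosin nodes. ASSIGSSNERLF (TRBV19, TRBJ1-4) had 27086 reads in heart 1, 17 and 2 in MI nodes 1 and 2 and 4397 in heart extract node 3. In the other nodes it had 422 reads in sham node 3 and 4 or fewer elsewhere, adjuvant nodes 2 and 4 included. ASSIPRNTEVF (TRBV19, TRBJ1-1) had 40772 reads in heart 1, 117, 72 and 3 in the MI nodes, 129 in sham node 3 and 190 and 218 in the myosin nodes, all with the heart's V and J.

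By listing alone, 137 members (16.8%) were in an antigen node and no adjuvant node, where 10.7% of all MI node CDR3s were, and 71 (8.7%) in an adjuvant node and no antigen node, against 7.23%. With 5 antigen and 4 adjuvant libraries the first pattern has more chances. In both a myosin and a heart extract node and in no adjuvant node were 24 members (2.94%, against 1.52%). In both antigen and adjuvant nodes were 375 members (46%, against 9.56%), and in no axillary node 233 (28.6%, against 72.5% of all MI node CDR3s). Members thus had the higher share in each pattern with an axillary read, and by most where antigen and adjuvant nodes shared the CDR3. These shares do not hold the number of nodes per CDR3 equal, so no antigen excess is read from them. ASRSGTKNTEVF (TRBV13-1, TRBJ1-1) had 1036 reads in heart 1, 43 and 27 in MI nodes 1 and 2, 460 and 115 in sham nodes 1 and 2, 237 in myosin node 2 and 722 in heart extract node 1. With its heart V and J it had 23 reads in sham node 2 and none in any other node, MI and antigen nodes included. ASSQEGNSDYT (TRBV5, TRBJ1-2) had 4875 reads in heart 3 and 105, 214 and 292 in MI nodes 1, 2 and 3. It had 3 to 78 reads in 3 sham nodes, 139 and 101 in the myosin nodes and 621 in heart extract node 2. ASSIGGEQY (TRBV19, TRBJ2-7, 9 residues) had 9528 reads in heart 1 and 1708 and 50 in MI nodes 1 and 2, with 220 in myosin node 2 and 432 in heart extract node 2, but also 159, 19 and 505 in sham nodes 1, 3 and 4. All its reads carried the heart's V and J. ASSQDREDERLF (TRBV5, TRBJ1-4) had 5386 reads in heart 2, 58 and 71 in MI nodes 1 and 2, 41 in sham node 3, 291 in myosin node 1 and 310 in heart extract node 2. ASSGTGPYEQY, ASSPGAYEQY, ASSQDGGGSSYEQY and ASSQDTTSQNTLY completed the 8, with 388 to 848 reads summed over antigen nodes. Each of the 8 was in at least 1 sham node.

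Members listed after adjuvant and not after antigen reached up to 1524 adjuvant node reads, and members listed after antigen and not after adjuvant up to 1062 antigen node reads. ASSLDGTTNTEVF (TRBV3) had 4352 reads in heart 3 and 1524 in adjuvant node 1, with none in an antigen node. All 1524 had its heart V and J, but none of its MI node reads did. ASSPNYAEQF (TRBV4, TRBJ2-1) had 8203 reads in heart 3, 46 to 108 in the MI nodes, 96 to 586 in the sham nodes and 4, 26, 694 and 547 in adjuvant nodes 1 to 4, and was in none of the 5 antigen nodes. With its heart V and J these were 85 in MI node 3, 77 and 3 in sham nodes 1 and 3 and 2 and 126 in adjuvant nodes 2 and 4. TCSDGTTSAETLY (TRBV1) had 16245 reads in heart 2, 69 in MI node 2, 8 in sham node 3 and 1183 in adjuvant node 1, all with the heart's V and J. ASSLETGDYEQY (TRBV16, TRBJ2-7) had 62553 reads in heart 3, 46 and 1638 in MI nodes 2 and 3, 85 and 389 in sham nodes 1 and 3 and 996 in adjuvant node 2, all with the heart's V and J.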

How the data were processed

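TRB transcripts of 19 libraries were amplified by multiplex PCR with gene-specific primers and sequenced on an Illumina HiSeq, per the labels. The deposited tables give unnormalised read counts for each combination of CDR3, V and J; the aligner was not given in the sources used here, nor was the error correction. No molecular identifiers are mentioned, so intervals cover counting error only. Node totals ran from 7534295 to 9235800 reads and heart totals from 2426715 to 5126910. Counts were summed per CDR3 with Python 3.11.15. Axillary groups were compared with edgeR 4.0.16 in R 4.3.3 (quasi-likelihood test, library totals as offset, all 16 nodes in the fit, at least 3 libraries and 20 reads, Benjamini-Hochberg at 0.05), with DESeq2 1.42.0 as an alternative. The edgeR fit was also run on simulated counts that gave each CDR3 a fixed expected share within a group. CDR3s confined to a single library were not simulated as such, so that run does not bear on calls for them. Listing percentages were compared by exact permutation. Same-numbered hearts and MI nodes correlated at 0.231, 0.214 and 0.243 in their deviations and unequal numbers below 0. Deviations within a group sum to 0, so the values below 0 are no separate result. The numbers were taken to pair these libraries from the same reads that the listing by number used, and the labels state no shared mouse. Same-numbered adjuvant and antigen libraries showed no such correlation. They came from differently injected mice, so this has no bearing on the pairing of hearts and MI nodes.

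The members and lists were chosen with earlier results of these data known. CDR3s of at most 14 residues were named by rule: the 5 largest of each heart, the 10 with most MI node reads, those large in more than 1 heart, the 8 in most nodes, up to 8 in both antigen groups and no adjuvant node, up to 4 in the reverse pattern, 3 on each side of the limit, up to 5 groups of neighbours and the 3 smallest p per contrast. Of these, 2 CDR3s at the limit are given by V, J and length in place of their letters. Nucleotide sequences were not used here.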

Additional observations from a re-analysis of the deposited data

Results flagged for a closer look

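In 51 sets of values of a node group of 4 or 5 libraries (the summary percentages, and named CDR3s listed in every library of the group), 5 held a library far from the others by Dixon's criterion, which chance meets in about 1 of 20 sets. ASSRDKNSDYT had 1754 reads in sham node 2 and 70 to 316 in the other sham nodes. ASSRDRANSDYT, which also ends in NSDYT and is large in heart 3, had 1154 reads in sham node 2 and 318 to 420 in the others. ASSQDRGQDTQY had 2109 reads in adjuvant node 2 and 602 to 740 in the other adjuvant nodes. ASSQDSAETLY had 2574 reads in adjuvant node 3 and 676 to 847 in the others. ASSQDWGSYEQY had 983 reads in heart extract node 1 and 683 to 723 in the other antigen nodes.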

How the results depend on the processing

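The number of members was 904 with a limit of 500 heart reads, 648 with 2000, 734 with 10 or more node reads, 717 with V and J matched and 684 with an equal share of each heart library, and ran from 460 to 729 with a heart or an MI node left out (540 without heart 2, 460 without heart 3). The difference of the same number from the others kept its sign in all 8 alternatives, from 11.1 to 13.2 points. The length difference kept its sign in all 7, at -0.453 residues with V and J matched and from -0.732 to -0.587 with a heart left out. The difference between MI and sham nodes stayed above 0 and its p above 0.05 in all 16. The difference between antigen and adjuvant nodes changed sign with equal numbers of CDR3s (-0.269) and ran from -1.6 to 2.91 with a library left out. By edgeR no CDR3 passed in any contrast with TMM factors, without the low-count filter, without entries under 10 reads or with a library left out. With the sample number as a replicate block, 0 CDR3s passed and 2059, 1233 and 1386 had an unadjusted p under 0.05 for antigen, myosin and heart extract. DESeq2 called 15621, 11992 and 14333 CDR3s, of them 84, 53 and 76 members; the cause was not tested. Hearts held 5000 sorted cells, so a clone of few cells may be missed, and equal CDR3s need not be equal clones.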
